A study of Homo sapiens with 38 samples.

Results

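This account follows 10 genes of the BCL2 family, BCL2, BCL2L1, MCL1, BAX, BAK1, BID, BBC3, PMAIP1, BCL2L11 and BIK, through breast cancer cells treated with compounds directed at the histone methyltransferase EZH2. The 10 were chosen by symbol out of 24463 genes listed over the 15 deposited tables, each of which sets a compound against DMSO, the solvent control. 9 of them were listed and tested in all 15 tables. On GRCh38 (GENCODE v29) they lie on separate loci, BCL2 at chr18:63123346-63320128 (minus), BCL2L1 at chr20:31664452-31723989 (minus), MCL1 at chr1:150574551-150579738 (minus), BAX at chr19:48954815-48961798 (plus), BAK1 at chr6:33572547-33580293 (minus), BID at chr22:17734138-17774770 (minus), BBC3 at chr19:47220822-47232766 (minus), PMAIP1 at chr18:59899948-59904306 (plus), BCL2L11 at chr2:111119378-111168447 (plus) and BIK at chr22:43110748-43129712 (plus). BIK was listed in 11 tables, was absent from the 4 tables of BT-549, and passed the filter on low values in 9.

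Polyadenylated RNA was sequenced in 38 samples, 19 groups of 2, of 3 breast cancer lines (T47D, T47D-TR, BT-549) kept in the same insulin-containing medium. For 48 h each line received 2.5 uM of MS177, a PROTAC (a molecule that marks its target protein for destruction) against EZH2, of MS177-N1 or MS177-N2, its negative controls, of C24, an inhibitor of EZH2 methyltransferase activity, or 0.125% DMSO. For 30 h T47D-TR received 2.5 uM of MS8815, a second EZH2 PROTAC, of MS8815-N, its negative control, of EPZ-6438, an EZH2 methyltransferase inhibitor, or 0.05% DMSO. The labels do not say whether the 2 samples of a group were separate cultures, so p-values measure only the spread between these samples, which may be technical.

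The BCL2 family sets the threshold for the mitochondrial route of apoptosis. BCL2, BCL2L1 (BCL-XL) and MCL1 hold the effectors BAX and BAK1 in check, and BH3-only proteins, here BID, BBC3 (PUMA), PMAIP1 (NOXA), BCL2L11 (BIM) and BIK, bind the pro-survival members or the effectors and lower that threshold. In breast epithelium BCL2 is known as a gene that follows estrogen receptor activity, and BBC3 and PMAIP1 are known as targets both of p53 and of stress factors such as ATF4 and DDIT3 (CHOP).

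The stretches upstream of 4 start sites are shown because PMAIP1, BBC3 and BAX were among the members called higher under MS177 and BCL2L1 was called in opposite directions in T47D-TR and BT-549. The sequences are RefSeq's for GRCh38.p14, 5′ to 3′ on the gene's strand, and end where the first annotated exon of any gene begins. Capitals mark the cyclic AMP response element core TGACGT (in PMAIP1 read as ACGTCA, its other strand), the E-box CACGTG and the AP-1 site TGANTCA. They run over chr18:59899746-59899947 (plus strand) for PMAIP1, chr19:47232767-47232917 (minus strand) for BBC3, chr19:48954625-48954814 (plus strand) for BAX and chr20:31723990-31724213 (minus strand) for BCL2L1.
PMAIP1: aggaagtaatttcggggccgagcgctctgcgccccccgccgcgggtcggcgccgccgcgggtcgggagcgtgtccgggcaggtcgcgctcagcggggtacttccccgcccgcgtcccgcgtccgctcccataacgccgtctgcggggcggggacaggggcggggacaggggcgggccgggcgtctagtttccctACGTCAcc
BBC3: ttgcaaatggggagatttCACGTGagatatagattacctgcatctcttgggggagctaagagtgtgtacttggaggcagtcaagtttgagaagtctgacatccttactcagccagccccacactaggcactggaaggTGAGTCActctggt
BAX: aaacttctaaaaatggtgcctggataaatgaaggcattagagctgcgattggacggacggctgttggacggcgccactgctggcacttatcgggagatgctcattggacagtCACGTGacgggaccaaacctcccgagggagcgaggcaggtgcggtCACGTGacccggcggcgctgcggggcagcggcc
BCL2L1: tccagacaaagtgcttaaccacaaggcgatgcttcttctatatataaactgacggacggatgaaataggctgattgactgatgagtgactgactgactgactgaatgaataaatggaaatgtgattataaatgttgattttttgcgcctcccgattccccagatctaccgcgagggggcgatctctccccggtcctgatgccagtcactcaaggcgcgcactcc

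The motifs were searched on both strands of windows of 300 bases, 250 before to 50 after each RefSeq start. In the genes shown, that start lies inside the GENCODE gene given above. For PMAIP1 the shown stretch ends 49 bases before it. Of 35116 such windows, 7.98% held TGACGT, 7.26% CACGTG, 7.71% TGANTCA, 3.62% the C/EBP-ATF composite TGATGNAA and 6.63% the p53 decamer motif. Among 13 windows of 8 members, 1 held TGACGT (PMAIP1, 56 bases before the RefSeq start), 4 held CACGTG (BAX, BBC3 and 2 overlapping windows of BID that hold the same E-box), 1 held TGANTCA (BBC3), 1 the p53 decamer (BAK1) and 0 TGATGNAA. The BAX window held 4 E-boxes, 2 of them in the part shown, and no searched motif was found in the BCL2L1 part shown. MCL1 and BIK had no window. A match is a run of letters and was not tested for binding.

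Several libraries need naming before the results. In T47D the second treated column of the MS177-N1 table held the reads of MS177-N2 replicate 2, equal at 17724 of 17724 shared genes, so MS177-N1 in T47D had 1 library. The T47D MS177 libraries correlated at 0.917 over genes, against 0.990 for their DMSO pair. In T47D-TR at 30 h, MS8815-N replicate 2 had 44.3% of its genes at the lowest value, and BAK1, PMAIP1, BCL2L11 and BIK were listed at 0 in it. The pair of MS8815 libraries correlated at 0.911 and MS8815 replicate 1 had 4.93% of genes at the lowest value. Depth was 32.1 M to 49.9 M reads in T47D and BT-549 and is unknown in T47D-TR. Comparisons of one line and time share their DMSO libraries. In the tables of MS177 against DMSO, luminal markers took 1.20 to 2.07% of T47D and T47D-TR libraries and 0.0690 to 0.0799% of BT-549 libraries, and mesenchymal markers took 0.0007 to 0.0035% of T47D and T47D-TR libraries and 0.3820 to 0.5209% of BT-549 libraries. ESR1 averaged 453.9 ± 103 normalized counts in MS177-treated and 1548 ± 150.2 in DMSO-treated T47D-TR, and 10.5 ± 1.61 in MS177-treated and 4.69 ± 5.13 in DMSO-treated BT-549 (SD, n = 2 each). Of 6 immune and stromal markers, 2 were listed in each of these tables, at up to 0.0010% of a library.

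In DMSO the pro-survival genes BCL2L1 and MCL1 were the most abundant members per kilobase of exon in all 3 lines, and BCL2 was last or next to last. In T47D the levels ran BCL2L1 (2497 ± 123 normalized counts per kilobase), MCL1 (1778 ± 67.9), BAK1 (648.5 ± 37.7), BAX (401.2 ± 34.1), BID (356.5 ± 15.9), BIK (56.4 ± 12.7), PMAIP1 (51.5 ± 15.7), BCL2L11 (46.4 ± 0.204), BBC3 (31.9 ± 7.14) and BCL2 (27.1 ± 0.167; SD, n = 2 each). Libraries of BIK, PMAIP1 and BCL2L11 overlapped their neighbour in that order, as did BBC3 and BCL2. In T47D-TR the order was BCL2L1 (1230 ± 5.14), MCL1 (843.3 ± 17.6), BID (214.9 ± 49.5), BAK1 (203.5 ± 1.44), BAX (159.7 ± 6.63), PMAIP1 (45.6 ± 3.45), BCL2L11 (36.1 ± 2.19), BBC3 (22.3 ± 1.17), BCL2 (9.29 ± 0.552) and BIK (7.54 ± 7.0). BID overlapped BAK1 and BCL2 overlapped BIK. BT-549 differed in its head, with MCL1 (2473 ± 116) above BCL2L1 (2124 ± 40.3), then BAX (1531 ± 123), BID (656.0 ± 95.4), BAK1 (600.4 ± 42.1), PMAIP1 (237.9 ± 5.01), BBC3 (72.5 ± 9.65), BCL2L11 (63.7 ± 10.2) and BCL2 (38.5 ± 6.50). There BID overlapped BAK1 and BBC3 overlapped BCL2L11. Each line was scaled in its own table, so these levels order genes within a line only. In bulk RNA, a change in the number of cells that express a gene and a change in RNA per cell cannot be told apart.

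Under MS177 the BH3-only genes PMAIP1 and BBC3 stood above their DMSO level in all 3 lines, from 4.28-fold for BBC3 in BT-549 to 8.56-fold for BBC3 in T47D, and passed the test in T47D-TR and BT-549. BCL2 and BCL2L1 fell in T47D-TR, while BCL2L1 rose in BT-549. In T47D-TR, limma (two-sided, on log2 of normalized count + 1, Benjamini-Hochberg adjusted over all genes tested, threshold 0.05) called 8 of the 10 members, 5 higher and 3 lower, against 54.6% of all 14555 genes tested (27.6% higher, 26.9% lower). In BT-549 it called 3 of 9, all higher, against 24% of 16336 genes in either direction and 11.5% higher. In T47D it called 0 of 10 and 0 of 17370 genes, or 0%. The median log2 difference of the members tested was 0.41 in T47D-TR, 0.31 in BT-549 and 0.09 in T47D, against -0.0017, 0.0142 and -0.0017 over all genes tested.

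**Figure D1:**
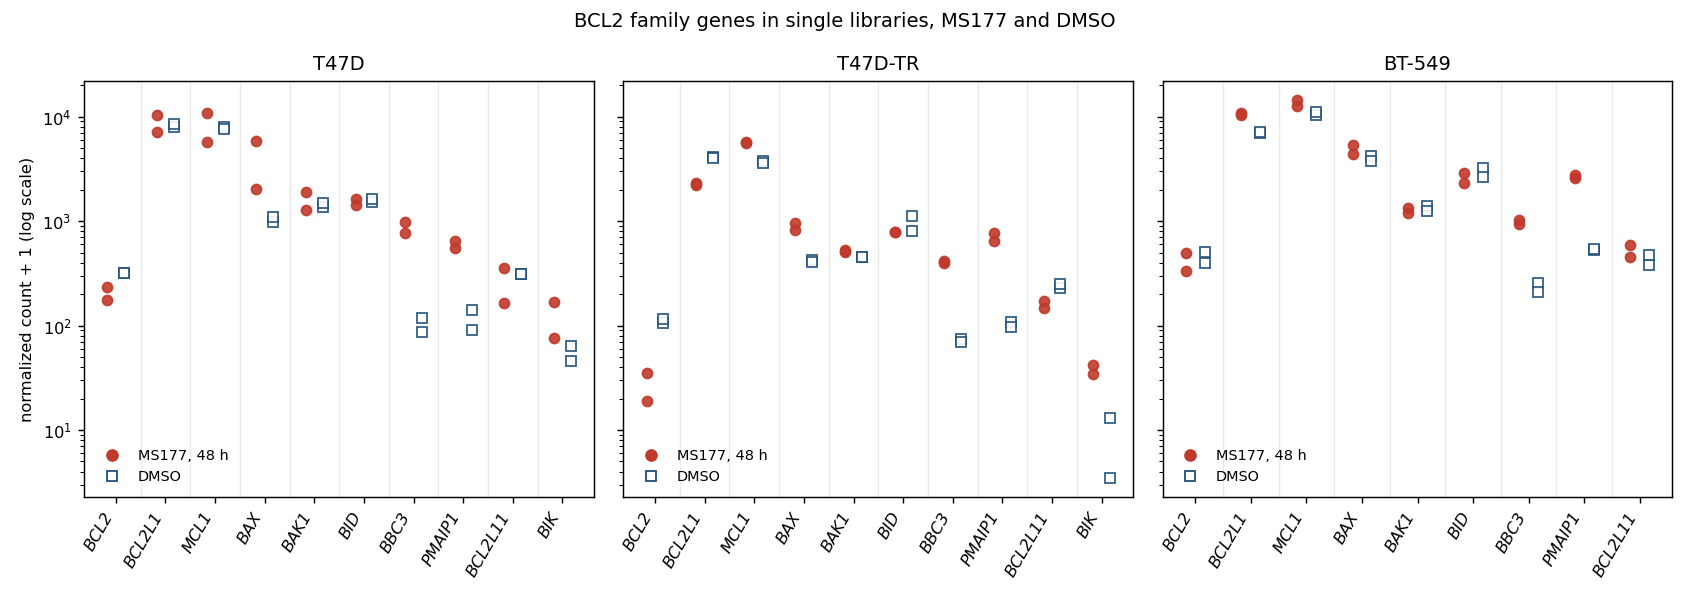
Normalized count + 1 (log scale) of each BCL2 family gene in every MS177 library (filled circles) and DMSO library (open squares) of the 3 lines at 48 h. PMAIP1 and BBC3 circles lie above their squares in each line; BCL2L1 circles lie below in T47D-TR and above in BT-549.

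PMAIP1 encodes NOXA, a BH3-only protein that mainly binds MCL1. It had 649 and 764 normalized counts in MS177-treated T47D-TR, against 107 and 96.5 in DMSO, a 6.86-fold higher level (log2 difference 2.78 ± 0.17 SE, limma adjusted p = 7.05e-05). In BT-549 it had 2597 and 2786 under MS177 and 524 and 539.6 in DMSO (log2 difference 2.34 ± 0.12, limma adjusted p = 0.00116). Both MS177 libraries lay above both DMSO libraries by several times the spread within either pair. In T47D PMAIP1 had 556 and 651 under MS177 and 90.3 and 139.8 in DMSO. That log2 difference was 2.41 ± 0.35, between those of the other lines, but its limma adjusted p was 0.132.

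BBC3 encodes PUMA, a BH3-only protein that binds all the pro-survival members. T47D-TR had 399 and 409.8 normalized counts of BBC3 under MS177 and 73.6 and 68.4 in DMSO, 5.63-fold higher (log2 difference 2.49 ± 0.17, limma adjusted p = 0.000117). BT-549 had 946 and 1030.1 under MS177 and 252 and 209 in DMSO (2.10 ± 0.15, limma adjusted p = 0.00208). The groups did not overlap in either line. In T47D BBC3 had the largest difference from DMSO of any member, with 974 and 767 under MS177 against 85.3 and 117 in DMSO (3.10 ± 0.33), yet the limma adjusted p was 0.117. A pair of miRNA genes, MIR3190 and MIR3191, overlaps 2.5% and 2.4% of the exon length of BBC3.

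The remaining BH3-only genes were less uniform. BIK, an endoplasmic reticulum-associated BH3-only protein, had 33.2 and 40.8 normalized counts in MS177-treated T47D-TR, against 11.9 and 2.47 in DMSO (2.50 ± 0.66, limma adjusted p = 0.0181). These counts are low and the DMSO pair spread widely. In T47D it had 168 and 75.4 under MS177 and 45.1 and 62.3 in DMSO (1.07 ± 0.52, limma adjusted p = 0.358). BCL2L11, which encodes BIM, fell in T47D-TR to 171 and 145 under MS177, against 229.9 and 250.5 in DMSO (-0.60 ± 0.18, limma adjusted p = 0.0271). That call was lost with quantile normalization and in 4 other alternatives, with adjusted p up to 0.147. The log2 difference of BCL2L11 from DMSO in T47D-TR was also -0.50 ± 0.21 under MS177-N1, -0.43 ± 0.25 under C24 and -0.19 ± 0.18 under MS177-N2, none called. MS177 set against each of these compounds did not call BCL2L11 in that line. In BT-549 BCL2L11 had 584 and 455 under MS177 and 376 and 472 in DMSO, groups that overlapped, and in T47D 165 and 355 under MS177 spanned the 310.2 and 308 of DMSO. The opposite-strand gene MIR4435-2HG overlaps 10.9% of the BCL2L11 exon length, and reads of the pair cannot be told apart without strand, which the sources used here do not state. BID, cut by caspase-8 to link death receptors to mitochondria, passed in none of the 3 lines, with log2 differences of -0.27 in T47D-TR, -0.17 in BT-549 and -0.07 in T47D.

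The effector BAX rose in T47D-TR and BAK1 did not pass anywhere. BAX had 813 and 965 normalized counts in MS177-treated T47D-TR and 425 and 401 in DMSO, 2.14-fold higher (1.10 ± 0.14, limma adjusted p = 0.00104). In BT-549 it had 4426 and 5413 under MS177 and 4186 and 3734 in DMSO (0.31 ± 0.15, limma adjusted p = 0.180). The T47D libraries of BAX disagreed in size, with 5894 and 2045 under MS177 against 976 and 1100.4 in DMSO (1.74 ± 0.58, limma adjusted p = 0.243). BAK1 differed by 0.20 ± 0.13 in T47D-TR, -0.07 ± 0.13 in BT-549 and 0.12 ± 0.31 in T47D, and none of these passed. BAK1 has processed copies annotated elsewhere (BAK1P1 and BAK1P2), and reads shared with them may be split.

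The 3 pro-survival genes changed in different directions. BCL2 fell in T47D-TR to 17.9 and 33.9 normalized counts under MS177, against 105 and 114 in DMSO, 4.29-fold lower (-2.10 ± 0.35, limma adjusted p = 0.00308). In T47D it had 176 and 233 under MS177 and 320.2 and 317 in DMSO (-0.65 ± 0.30, limma adjusted p = 0.339), and in BT-549 498 and 334 under MS177 and 399 and 507 in DMSO (-0.14 ± 0.24, limma adjusted p = 0.702). The groups were apart in T47D-TR and T47D and overlapped in BT-549. BCL2L1, the gene of BCL-XL, fell in T47D-TR to 2306 and 2212.2 under MS177, against 4089 and 4065 in DMSO (-0.85 ± 0.10, limma adjusted p = 0.000741). It rose in BT-549 to 10449 and 10864, against 6944 and 7133 in DMSO (0.60 ± 0.11, limma adjusted p = 0.0174). Without BT-549 DMSO replicate 1 or replicate 2 that second call was lost, with adjusted p up to 0.101. In T47D the 10424 and 7091 BCL2L1 counts under MS177 lay on either side of the 7988 and 8564 of DMSO. The antisense gene ABALON overlaps 43.0% of the BCL2L1 exon length, so BCL2L1 is reported as uncertain to that extent. MCL1, a short-lived protein that NOXA neutralises, rose in T47D-TR to 5588 and 5664 under MS177, against 3740.2 and 3632 in DMSO (0.61 ± 0.10, limma adjusted p = 0.00265). In BT-549 it had 14464 and 12620.5 under MS177 and 10451 and 11166 in DMSO (0.32 ± 0.13, limma adjusted p = 0.127), and in T47D 5773 and 10849 under MS177 spanned the 7982 and 7563 of DMSO.

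The MS177 libraries of T47D differed between themselves for BAX, MCL1, BCL2L11 and BIK, among others. At an unadjusted p under 0.05, limma gave 3 members, BAX, BBC3 and PMAIP1, and 18.21% of all genes; limma voom on the recovered reads also called 0 members and 0 genes. 4 members, BAX, BBC3, PMAIP1 and BIK, had both MS177 libraries above both DMSO libraries, against 27.5% of all genes tested, and 1, BCL2, had both below, against 28.2%. The limma fit over all T47D libraries called 3 members, BAX at adjusted p = 0.0482, BBC3 at 0.00184 and PMAIP1 at 0.00335. It called 3135 of 17341 genes tested, so the rise from 0 was not particular to the members. A fit of the table without 1 library leaves a group of 1, and a lone MS177 library is assumed to vary like the others. Counts of called members from such fits are not read as a result about the members. The log2 difference of MCL1 was 0.48 without MS177 replicate 1 and -0.43 without MS177 replicate 2. Mitochondrially encoded genes took 2.30% of MS177 replicate 1 and 4.69% of replicate 2, against 4.98% and 5.07% in DMSO; their part in the result was not tested. In BT-549 these genes took 1.22% and 0.959% under MS177 and 1.82% and 1.77% in DMSO, with 7 of 13 called lower, MT-ND2 at -1.19 ± 0.15 and MT-ATP6 at -1.02 ± 0.17; in T47D-TR 1 of 13 was called, MT-CO3 at -0.47 ± 0.16. Their part in these results was not tested either.

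**Figure D2:**
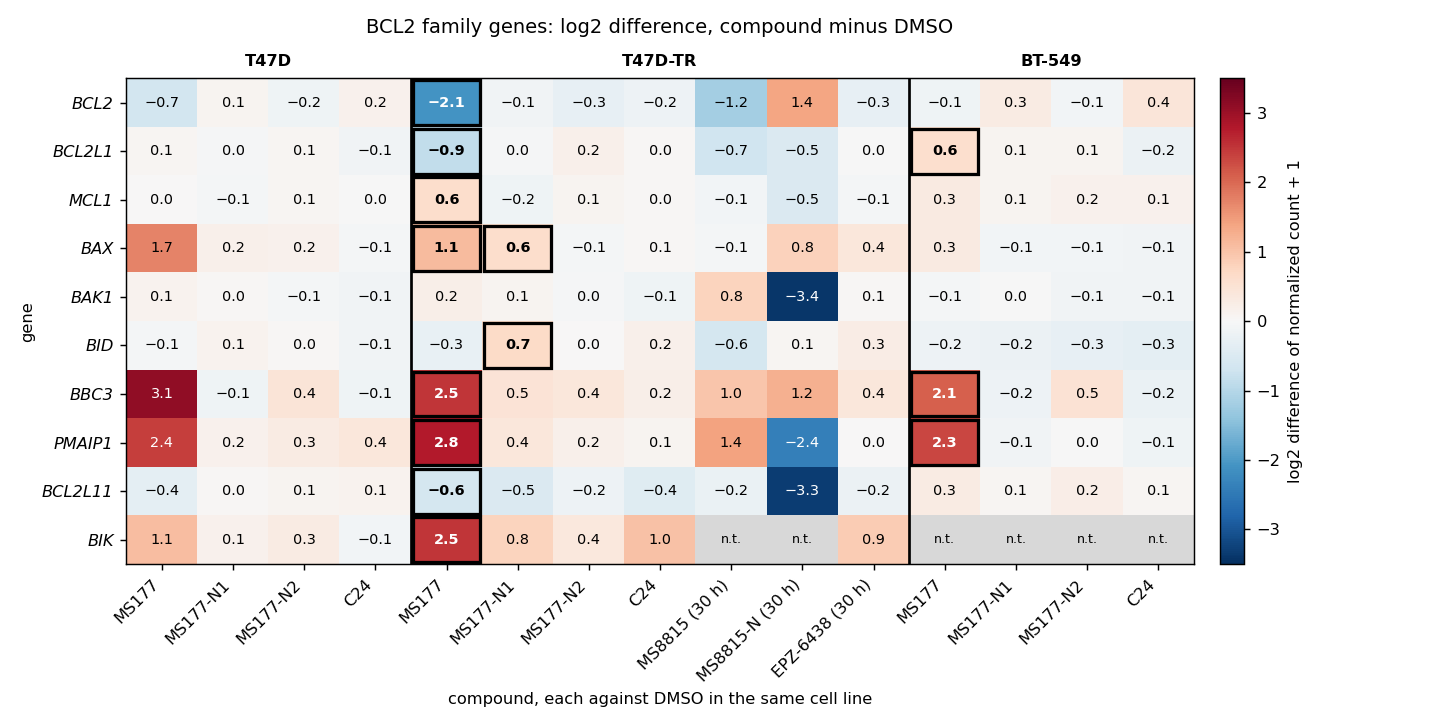
Log2 difference (compound minus DMSO, normalized count + 1) of each BCL2 family gene in all 15 comparisons, with red for higher and blue for lower in the compound. Boxes mark adjusted p below 0.05 and n.t. marks not tested; boxes fall under MS177 in T47D-TR and BT-549 and MS177-N1 in T47D-TR. The deep blue MS8815-N cells come from replicate 2, which listed those genes at 0.

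Among the other compounds at 48 h, only MS177-N1 in T47D-TR gave a called member. BAX had 522 and 459 normalized counts under MS177-N1 and 331 and 309 in DMSO (0.61 ± 0.17, limma adjusted p = 0.0359). BID had 1270.1 and 1339.7 under MS177-N1 and 969 and 691 in DMSO (0.67 ± 0.18, limma adjusted p = 0.0335). Both rose, 2 of 10 members against 17.3% of all genes called in either direction and 9.92% called higher, and both calls were lost in one fit over all T47D-TR libraries at 48 h (adjusted p up to 0.199 for BAX and 0.222 for BID over all alternatives). In the same table mitochondrially encoded genes took 0.725% and 0.505% of the MS177-N1 libraries, against 1.20% and 1.65% in DMSO, and mesenchymal markers 0.0011% and 0.0008%, against 0.0021% and 0.0020% in DMSO; their part in the result was not tested. BBC3 and PMAIP1 stayed short of the threshold there, at 0.49 ± 0.26 (limma adjusted p = 0.221) and 0.39 ± 0.24 (limma adjusted p = 0.280).

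No member was called by limma for MS177-N2 in T47D (0% of all genes called), T47D-TR (0.111%) or BT-549 (2.12%), for C24 in T47D (0.574%), T47D-TR (0.0140%) or BT-549 (0.165%), or for MS177-N1 in T47D (0.0651%) or BT-549 (0%). At an unadjusted p under 0.05 limma gave 1 of 10 members, BBC3, for MS177-N2 in T47D, where 5.536% of all genes passed that level, and 1 of 9, again BBC3, in BT-549, where 20.39% did. It gave 2 of 9, BCL2 and BID, for C24 in BT-549, against 11.33% of all genes, and 0 in the other 5. Limma voom on recovered reads called 0 members in every T47D and BT-549 comparison of these compounds. BBC3 had 274 and 361 normalized counts under MS177-N2 in BT-549, against 244 and 201 in DMSO (0.50 ± 0.20, limma adjusted p = 0.176, 95% interval 0.08 to 0.93). BCL2 had 685 and 604 under C24 in BT-549, against 424 and 538 in DMSO (0.43 ± 0.17, limma adjusted p = 0.406). C24, at the dose at which MS177 was given, left PMAIP1 at a log2 difference of 0.08 in T47D-TR (95% interval -0.56 to 0.73), -0.14 in BT-549 (-0.52 to 0.24) and 0.40 in T47D (-0.02 to 0.81).

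MS177 was set against each of the other 48 h compounds at the same dose and time, 9 pairs in all, with 2 more pairs at 30 h. PMAIP1 and BBC3 rose under MS177 in all 9 of the 48 h pairs. For PMAIP1 the log2 difference in T47D-TR was 2.39 ± 0.21 against MS177-N1 (limma adjusted p = 3.115e-05), 2.59 ± 0.21 against MS177-N2 (2.26e-05) and 2.70 ± 0.21 against C24 (1.65e-05). For BBC3 in BT-549 it was 2.27 ± 0.17 against MS177-N1, 1.59 ± 0.17 against MS177-N2 and 2.34 ± 0.17 against C24, with limma adjusted p of 2.39e-05, 0.000174 and 1.78e-05. BCL2L1 was lower under MS177 in T47D-TR (-0.81 from MS177-N1, -1.03 from MS177-N2, -0.88 from C24) and higher in BT-549 by 0.51, 0.51 and 0.80.

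Called members were then counted in each pair. T47D-TR had 7 of 10 against MS177-N1 (50.7% of all genes called), 7 against MS177-N2 (46.4%) and 6 against C24 (48.0%). BCL2, BCL2L1, MCL1, BAX, BBC3 and PMAIP1 were called in all 3, BIK only against MS177-N2 (2.13 ± 0.66, limma adjusted p = 0.0267) and BID only against MS177-N1 (-0.94 ± 0.23, limma adjusted p = 0.00862). The BIK call was lost when any 1 of the 4 compared libraries was left out, with adjusted p up to 0.1206 and a log2 difference as low as 0.32. BT-549 had 3 of 9 in each pair, against 33.1%, 37.1% and 35.7% of all genes, and the 3 were BCL2L1, BBC3 and PMAIP1. T47D had 2 against MS177-N1 (8.55%), 2 against MS177-N2 (16.7%), BBC3 and PMAIP1 in both, and 4 against C24 (19.3%). The further 2 against C24 were BAX (1.81 ± 0.46, limma adjusted p = 0.0417) and BCL2 (-0.80 ± 0.20, limma adjusted p = 0.0412). These T47D calls were made with a spread shared with the tighter libraries of the other compounds. With the compared libraries and DMSO alone, MS177 against MS177-N1 had 0 called members, and BAX and BCL2 lost their calls against C24. BBC3 and PMAIP1 kept theirs against MS177-N2 and C24 in that setting.

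**Figure D3:**
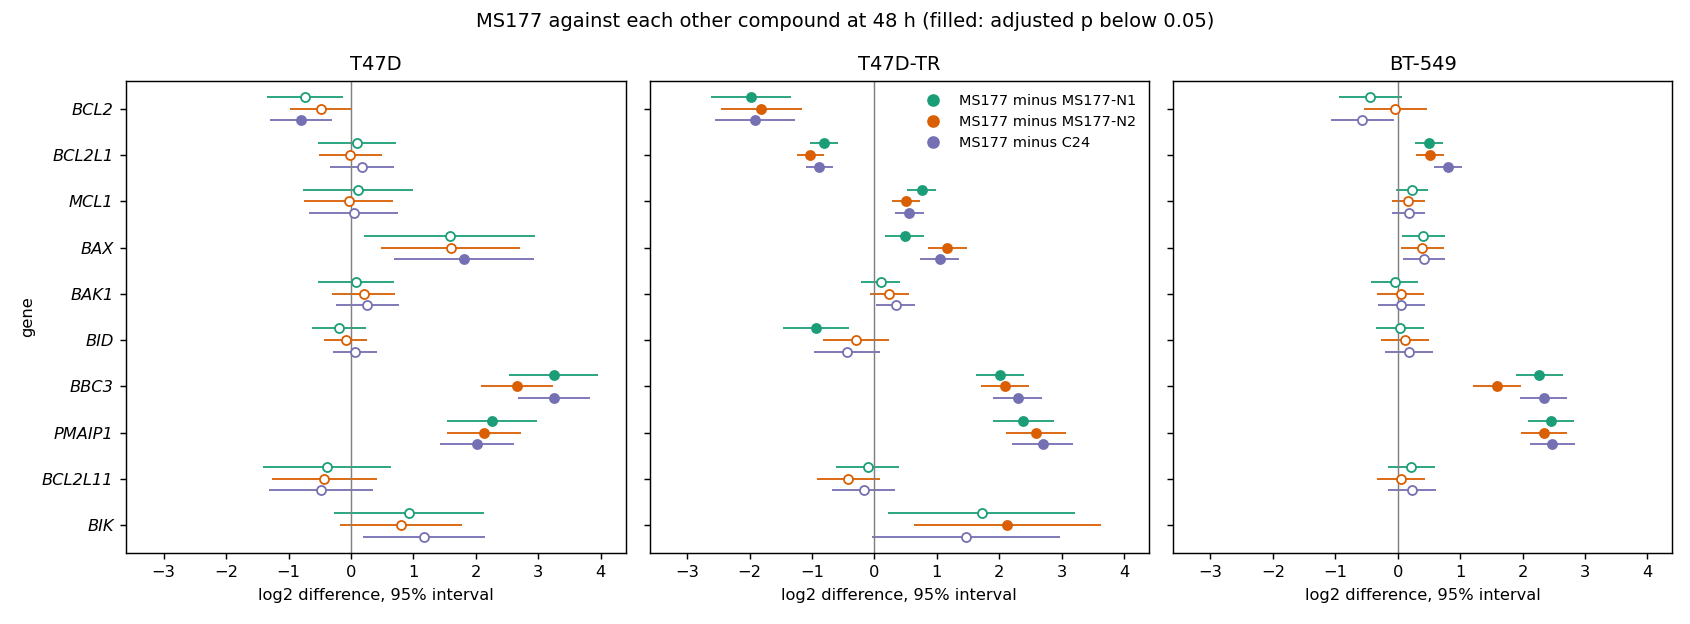
Log2 difference of MS177 minus MS177-N1, MS177-N2 and C24 for each BCL2 family gene in the 3 lines at 48 h, with 95% intervals. Filled points have adjusted p below 0.05; PMAIP1 and BBC3 are filled in all 9 pairs, BCL2L1 lies left of 0 in T47D-TR and right of it in BT-549, and BIK was not tested in BT-549.

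BAX under MS177 exceeded MS177-N1 in T47D-TR by 0.49 ± 0.14 (limma adjusted p = 0.0159), against 1.17 ± 0.14 over MS177-N2 and 1.05 ± 0.14 over C24. Without MS177 replicate 2 or MS177-N1 replicate 2 the first of these calls was lost. In BT-549 BAX was short of the threshold in all 3 pairs, at 0.41, 0.39 and 0.42, with limma adjusted p of 0.0643, 0.0683 and 0.0565. BAK1 was called in no pair, with 95% intervals in T47D-TR of -0.22 to 0.42 against MS177-N1, -0.08 to 0.56 against MS177-N2 and 0.03 to 0.66 against C24.

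The difference in response between lines was tested directly. The response of T47D-TR differed from that of BT-549 in 4 of 9 members, against 30.5% of all genes. The BCL2L1 response was lower in T47D-TR at -1.45 ± 0.12 on the log2 scale (limma adjusted p = 0.000210), and so was that of BCL2, at -1.96 ± 0.46 (0.0164). BCL2L11 differed by -0.89 ± 0.27 (limma adjusted p = 0.0395) and BAX by 0.79 ± 0.20 (0.0214). The BCL2L1 difference held in all 12 alternatives, from -1.48 to -1.42; the other 3 were each lost in at least 1 of 12. PMAIP1 and BBC3 did not pass, with differences of 0.44 (95% interval 0.00 to 0.88) and 0.40 (-0.10 to 0.89). T47D against BT-549 gave 0 of 9 called members (1.53% of all genes) and T47D-TR against T47D 0 of 10 (0.0289%). At an unadjusted p under 0.05, limma gave 1 member, BBC3, in the first, where 15.19% of all genes passed that level, and 2, BCL2 and BCL2L1, in the second, where 12.31% did.

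**Figure D4:**
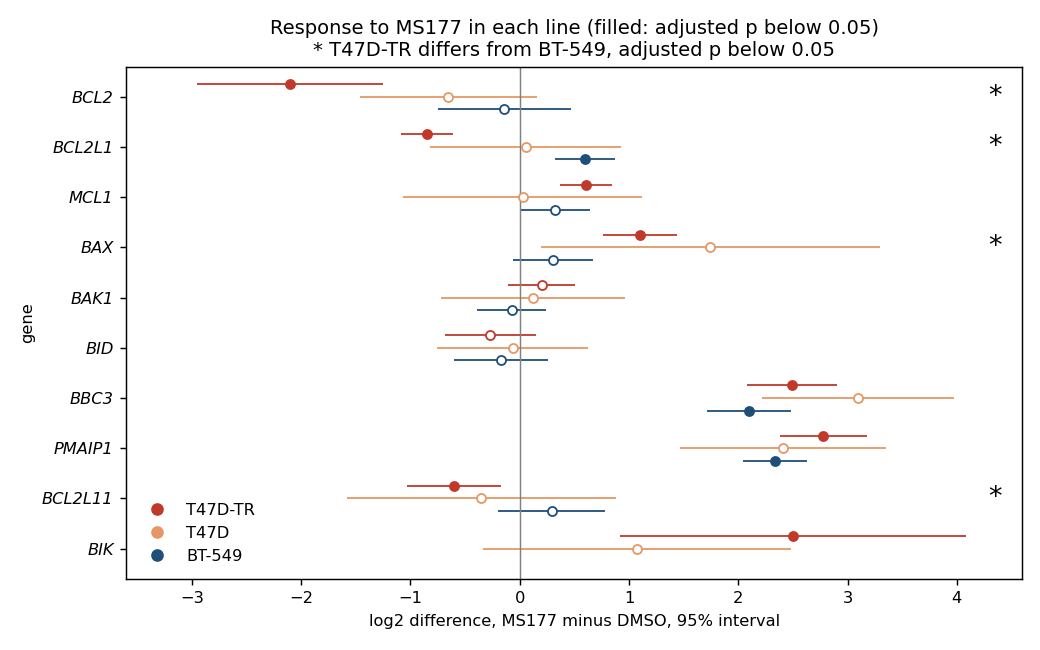
Log2 difference of MS177 minus DMSO for each BCL2 family gene in T47D-TR, T47D and BT-549, with 95% intervals and filled points for adjusted p below 0.05. Asterisks mark the 4 genes, BCL2, BCL2L1, BAX and BCL2L11, whose response differed between T47D-TR and BT-549; BIK was not tested in BT-549.

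MS8815, given to T47D-TR for 30 h, called 0 of 9 members against 5.19% of 13456 genes. At an unadjusted p under 0.05 limma gave 4, BAK1, BCL2, BCL2L1 and PMAIP1, and 28.50% of all genes. PMAIP1 had 188 and 230.3 normalized counts under MS8815 and 83.2 and 72.5 in DMSO (1.41 ± 0.26, limma adjusted p = 0.0533), and quantile normalization put it past the threshold (adjusted p = 0.0478). BAK1 had 543 and 660.3 under MS8815 and 360.5 and 339 in DMSO (0.77 ± 0.22, limma adjusted p = 0.102). Both had each MS8815 library above each DMSO library. BCL2L1 had 1715 and 1988 under MS8815 and 2989 and 2972 in DMSO (-0.69 ± 0.21, limma adjusted p = 0.113), and BCL2 had 13.9 and 12.1 under MS8815 and 30.4 and 31.4 in DMSO (-1.19 ± 0.41, limma adjusted p = 0.146). Both had each MS8815 library below each DMSO library, as did BID at 445.8 and 652.8 under MS8815 against 927.2 and 728.6 in DMSO. 3 members lay wholly above DMSO and 3 wholly below, against 30.2% and 31.7% of all genes. BBC3 had 55.3 and 90.8 under MS8815 and 31.5 and 40.4 in DMSO (0.97 ± 0.40, limma adjusted p = 0.196). MCL1, at 1403 and 2827 under MS8815, spanned the 2071 and 2191 of DMSO. BAX had 246 and 245 under MS8815 and 241 and 271 in DMSO, and BID and BCL2L11 differed by -0.61 and -0.23 on the log2 scale. A fit without 1 MS8815 library assumes that the lone library varies like the DMSO pair. Its count of called members is not read as a result. Luminal markers took 1.06% and 1.26% of the MS8815 libraries, against 2.37% and 2.26% in DMSO, with 0 of 9 called, and their part in these results was not tested. The 48 h and 30 h experiments differ in compound, time and solvent dose, so MS177 and MS8815 were not compared.

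EPZ-6438 and MS8815-N called no member (0% of all genes in each), and limma gave 0 members at an unadjusted p under 0.05 for both. Under EPZ-6438 PMAIP1 had 73.1 and 119 normalized counts, on either side of the 98.1 and 85.8 of DMSO (0.03 ± 0.34). Under MS8815-N, replicate 1 had 32.1 PMAIP1 and 155 BAK1, near DMSO at 31.1 and 27.6 PMAIP1 and 135 and 129 BAK1, while replicate 2 listed both at 0. Without that library the log2 difference of MS8815-N from DMSO was -0.39 for MCL1, 0.91 for BID and -1.22 for BCL2L11, on the 1 library left. MS8815 against MS8815-N called 0 of 10 members (0.0592% of all genes) and against EPZ-6438 0 of 10 (0.118%), with 2 (BCL2 and PMAIP1, against 14.7% of all genes) and 0 (against 9.141%) at an unadjusted p under 0.05. The intervals are wide: for PMAIP1, MS8815 minus EPZ-6438 was 1.39 with a 95% interval of -2.34 to 5.11. Without MS8815-N replicate 2 in that fit, its 95% interval was 0.55 to 2.22 and its adjusted p 0.0785, against 0.989 with it.

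**Figure D5:**
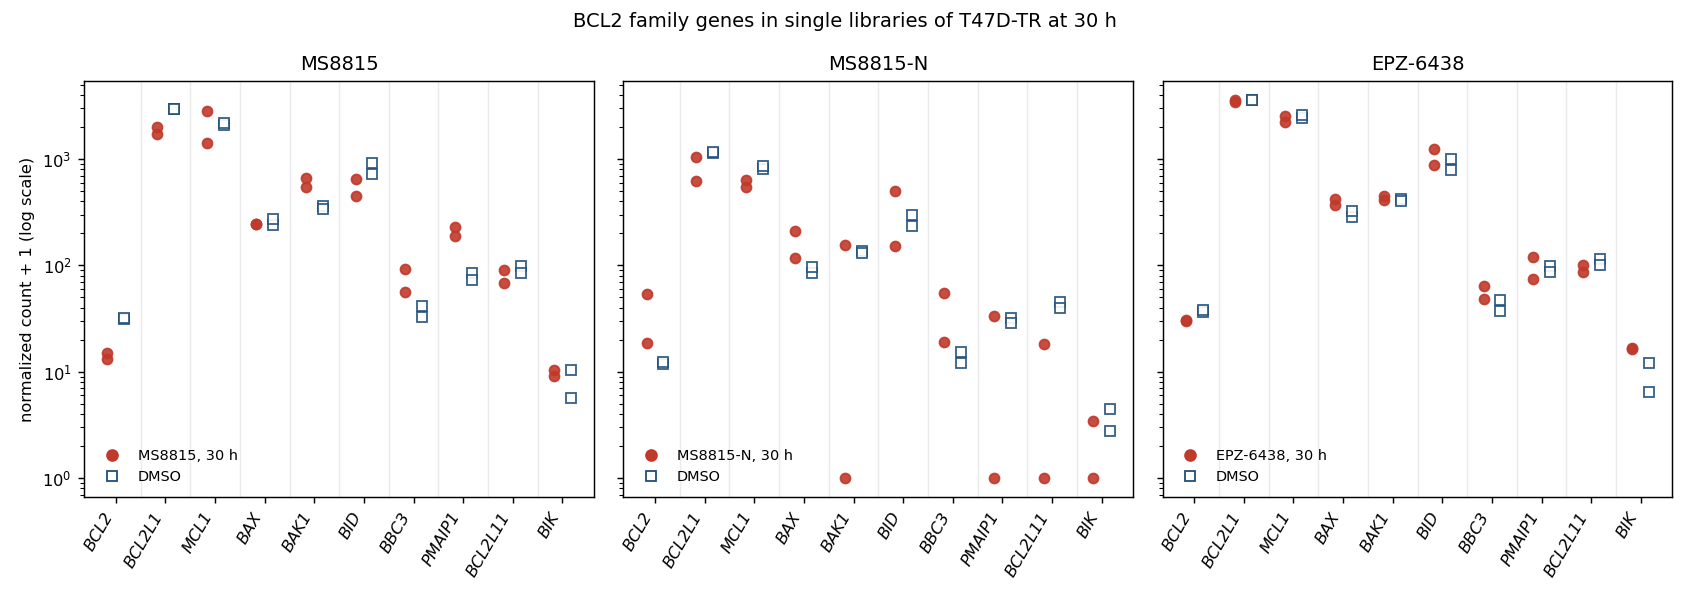
Normalized count + 1 (log scale) of each BCL2 family gene in single T47D-TR libraries at 30 h, for MS8815, MS8815-N and EPZ-6438 (filled circles), each beside the DMSO libraries of its own table (open squares). PMAIP1 and BAK1 circles lie above the squares under MS8815, and 4 genes sit at the floor in 1 MS8815-N library.

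The check of the targets gave EZH2 mRNA 1.45-fold higher under MS177 in T47D-TR (0.54 ± 0.15, limma adjusted p = 0.0213) and not past the threshold in BT-549 (0.32), T47D (0.24) or under MS8815 (-0.49). The PROTACs act on the protein, so EZH2 mRNA does not check the treatment. FOXM1, a cell cycle transcription factor, averaged 232.6 ± 1.60 normalized counts under MS177 and 1459 ± 189 in DMSO in T47D-TR, 6306.5 ± 711 under MS177 and 10052 ± 569 in DMSO in BT-549, and 230.3 ± 21.2 under MS8815 and 763 ± 53.1 in DMSO (SD, n = 2 each). It fell in all 3 comparisons by limma, with adjusted p of 5.07e-05, 0.0218 and 0.0351. In T47D it averaged 2209.9 ± 309 under MS177 and 7708 ± 176 in DMSO (limma adjusted p = 0.132). Of 5 genes of PRC2 and FOXM1 tested, 1 was higher and 3 lower in T47D-TR, among them EED, a PRC2 core subunit, at -0.92 ± 0.26, and FOXM1 was the 1 called in BT-549 and under MS8815.

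Transcription factors known to act on BH3-only genes moved in the same libraries. Of 12 tested, 8 were called higher and 2 lower by MS177 in T47D-TR, 6 higher and 2 lower in BT-549, and 0 in T47D; MS8815 called 3 of 11 higher. Over all genes tested, MS177 called 54.6% in T47D-TR and 24% in BT-549 and MS8815 called 5.19%, and the counts of this and the further gene lists are to be read against those shares. The median log2 difference of this list was 0.81, 0.54, 0.85 and 0.52. DDIT3, the stress factor CHOP, was higher by 4.76 ± 0.11 in T47D-TR, 3.11 ± 0.17 in BT-549 and 4.16 ± 0.19 under MS8815 (limma adjusted p = 1.625e-05, 0.00149 and 0.0157). ATF3, a related stress factor, was higher by 4.57 ± 0.12, 4.12 ± 0.13 and 3.19 ± 0.25 (limma adjusted p = 1.625e-05, 0.000458 and 0.0235).

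Of the other BCL2 family genes, 2 of 9 were higher and 3 lower in T47D-TR under MS177, 2 of 10 higher and 1 lower in BT-549, and 0 of 9 called by MS8815. The 5 of 9 called in T47D-TR lay near the 54.6% of all genes. HRK, a BH3-only gene, showed the largest differences, 4.25 ± 0.24 in T47D-TR and 5.78 ± 0.72 in BT-549 (limma adjusted p = 5.93e-05 and 0.00707). BCL2L12 was lower, at -1.71 ± 0.18 in T47D-TR and BCL2L13 higher by 0.78 ± 0.11 in BT-549 (limma adjusted p = 0.000465 and 0.00909). The differences of HRK exceeded those of every listed member in both lines.

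The machinery downstream moved in both directions. Apoptosome and caspase genes numbered 5 higher and 4 lower of 11 in T47D-TR and 2 higher and 3 lower of 11 in BT-549; DFFB, a DNA-cutting nuclease, and CASP6 were lower in T47D-TR at -1.94 ± 0.56 and -1.57 ± 0.17, and in BT-549 ENDOG was lower, at -0.93 ± 0.23 and HTRA2 higher by 0.83 ± 0.19. Of the inhibitors of apoptosis, 3 of 5 were higher and 1 lower in T47D-TR and 1 of 5 each way in BT-549 and under MS8815. BIRC5 (survivin), a mitotic gene as well, fell, with log2 differences of -2.90 ± 0.15 in T47D-TR, -0.64 ± 0.15 in BT-549 and -1.57 ± 0.24 under MS8815 (limma adjusted p = 4.44e-05, 0.0380 and 0.0437). XIAP, a caspase inhibitor, was higher by 0.57 ± 0.12 in BT-549 and 1.58 ± 0.21 under MS8815, and BIRC3 by 1.37 ± 0.18 in T47D-TR.

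Of the death receptor genes, 4 of 11 were higher and 1 lower in T47D-TR and 3 of 10 each way in BT-549, so 5 of 11 were called in T47D-TR, where 54.6% of all genes were. TNFRSF10B (DR5), the TRAIL receptor, was higher by 2.38 ± 0.13 in T47D-TR and 1.70 ± 0.12 in BT-549 (limma adjusted p = 4.77e-05 and 0.00200); the decoy TNFRSF10C was higher by 1.68 ± 0.15 in T47D-TR and FAS lower, at -1.47 ± 0.13 in BT-549. Outer membrane partners had 1 higher and 2 lower of 6 in T47D-TR, with VDAC3 and VDAC1, mitochondrial channels, lower, at -1.03 ± 0.14 and -0.96 ± 0.10, and 0 called in BT-549. Genes that set MCL1 turnover had 1 higher and 3 lower of 7 in T47D-TR. In BT-549 and under MS8815, 1 of 7 was lower and 0 higher. The ubiquitin ligase gene TRIM17 was higher by 2.86 ± 0.22 and the deubiquitinase gene USP13 lower, at -2.005 ± 0.16 in T47D-TR; USP13 was lower, at -0.57 ± 0.13 in BT-549, and CDC20 lower, at -1.82 ± 0.19 under MS8815.

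Cell type markers moved in the MS177 comparisons as well. Luminal markers had 2 higher and 5 lower of 9 in T47D-TR under MS177, PGR at -2.93 ± 0.47 and ESR1 at -1.78 ± 0.18, and 1 higher and 2 lower of 6 in BT-549, CDH1 at -2.24 ± 0.14 and KRT8 by 1.26 ± 0.17. Mesenchymal markers had 1 higher and 1 lower of 3 in T47D-TR, AXL by 2.83 ± 0.54 and FN1 at -2.27 ± 0.19, and 1 higher and 2 lower of 8 in BT-549, COL3A1 at -1.48 ± 0.16 and AXL by 0.92 ± 0.17. The macrophage and lysosomal gene CD68 was higher by 4.22 ± 0.51 in T47D-TR and 1.04 ± 0.15 in BT-549. Levels of AXL and CD68 were low in T47D-TR. AXL averaged 25.8 ± 11.2 normalized counts under MS177 and 2.65 ± 0.753 in DMSO, and CD68 42.3 ± 2.70 and 1.42 ± 0.927 (SD, n = 2 each). Both passed the filter on low values there only through the MS177 libraries. The part of these markers in the results was not tested.

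BAX, BBC3, PMAIP1 and BCL2L1 were each called in 2 of the 15 comparisons with DMSO, and the 3 with the larger median absolute difference were taken further. For BBC3, PMAIP1 and BAX, the genes with the most similar pattern over libraries were found among 14177 genes, as the mean Pearson r over 9 T47D and 10 BT-549 libraries on the log2 scale. BBC3 was most like RGL2 (mean r 0.985), a Ral guanine nucleotide exchange factor, and JDP2 (0.984), a repressor of the AP-1 family. HERPUD1 had the same rounded value as JDP2. PMAIP1 was most like HSPA5, the endoplasmic reticulum chaperone BiP, and RAB39B, a small GTPase (0.985 each). BTG1, PPP1R15A and UNC5B had the same rounded value. BAX was most like ERICH1 (0.988) and RRAS (0.984). The libraries of a line share their DMSO controls and were scaled together, so these values are a description and carry no p. BAX was called against DMSO only in T47D-TR, whose libraries did not enter these correlations. How far the MS177 libraries alone set the values was not tested.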

How the data were processed

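The 15 deposited tables each hold 2 libraries of a compound and their DMSO libraries as log2 values. Per the submitters' processing notes, the authors used RSEM, DESeq and the hg38 build; versions are not given in the sources used here. Where the scale allowed a check, the deposited log2 values behaved as a variance-stabilizing transform, which was undone to normalized counts. In T47D and BT-549 these were whole multiples of 1 read (within 0.05) for 100% of values up to 1000 reads; in T47D-TR they were not, so the transform is assumed there and depth is unknown.

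Differences were tested with limma 3.58.1 in R 4.3.3 on log2(normalized count + 1), with mean trend and robust empirical Bayes, two-sided, adjusted by Benjamini-Hochberg over all genes that reached 10 normalized counts in 2 or more libraries, at a threshold of 0.05. The added 1 shrinks the fold changes of low genes, but where libraries spread widely a fold on this scale can exceed the ratio of group means. BIK under MS177 in T47D-TR was 5.66-fold higher on this scale and 5.15-fold by group means. BCL2 under MS8815 went the other way, 2.28-fold lower on this scale and 2.37-fold by group means. The fits comprised 15 tables against DMSO, 11 compound pairs (1 fit per line and time) and 3 contrasts between lines. Simulated data, with a fixed spread and DMSO levels of the MS177 tables of T47D-TR and BT-549, were run only through the fit against DMSO. The fits of compound pairs and the contrasts between lines were not tested on simulated data. All 10 members are named in every comparison, and from each other list up to 2 called genes with the largest change. The members and lists were chosen with earlier results of these data known. With 2 libraries a group, the number of libraries limits precision.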

Additional observations from a re-analysis of the deposited data

Results flagged for a closer look

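4 members responded differently to MS177 in T47D-TR and in BT-549 by the limma contrast between lines, given as the T47D-TR response minus the BT-549 response on the log2 scale. BCL2 differed by -1.96 ± 0.46 (limma adjusted p = 0.0164), BCL2L1 by -1.45 ± 0.12 (0.000210), BAX by 0.79 ± 0.20 (0.0214) and BCL2L11 by -0.89 ± 0.27 (0.0395). These were 4 of 9 members tested, against 30.5% of all genes. Of 12 alternatives, BCL2L11 lost its call in 7, BAX in 5, BCL2 in 1 and BCL2L1 in 0. The lines were scaled in separate tables, and the cause of the differences was not tested.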

How the results depend on the processing

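Of 54 called member results, 38 kept their call under every alternative run, 16 lost it under at least 1, and 0 reversed; BCL2 and BIK (MS177, T47D-TR) were not tested on the deposited log2 scale. The count of called members moved as follows, and the cause was not tested. MS177 in T47D had 0 called members in its own table and 3 in one fit over all T47D libraries, 3 with the replicate block and 3 with crossed numbers as block; the count over all genes was 0 and 3135 in the fit over all libraries. MS177-N1 in T47D-TR (2) had 0 in the fit over all libraries and 1 with the block. In BT-549, crossed numbers gave 7 for MS177 (3), 2 for MS177-N2 (0) and 2 for C24 (0), and the block gave 2 for MS177-N1 (0). MS8815 (0) had 1 with quantile normalization. In T47D, the compared libraries and DMSO alone gave 0 for MS177 against MS177-N1 (2) and 2 against C24 (4), and the block 2 against C24. The block left 2 of 4 differences between T47D-TR and BT-549 (BAX and BCL2L11 lost) and ended the BCL2L1 call for MS177 in BT-549 (adjusted p = 0.0959). Leaving out 1 library gave 0 to 9 called members for MS177 in T47D, 0 to 1 for MS177-N1 and 7 to 8 for MS177 in T47D-TR, 2 to 3 for MS177 in BT-549, 0 to 6 for MS8815, 0 to 9 for MS8815-N and 0 to 2 for EPZ-6438. For MS177 against MS177-N1, MS177-N2 and C24 it gave 6 to 9, 0 to 9 and 1 to 9 in T47D, 6 to 8, 6 to 6 and 6 to 7 in T47D-TR and 3 to 5, 3 to 4 and 3 to 5 in BT-549; MS8815 gave 0 to 5 against MS8815-N and 0 against EPZ-6438. The contrasts of T47D-TR with BT-549, T47D with BT-549 and T47D-TR with T47D gave 1 to 4, 0 to 4 and 0 to 3.

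Same-numbered samples are matched here by number alone. Their deviations correlated at -0.355 to 0.379, which does not settle whether they were handled together. Crossed numbers, an alternative chosen after seeing the data, were used where the correlation was under -0.1. No block was possible for the 30 h compounds against DMSO, whose replicate numbers differ, or for MS177-N1 in T47D. Over all genes, 125 of 299 counts moved by more than 1.5 times. The shares of all genes called with crossed numbers or with 1 library left out are not given here. The member counts of those fits describe the fits and are not read as results about the members. The unknown depth of T47D-TR limits what its low counts (BIK, BCL2) can show.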
